A study of Mus musculus with 24 samples.

Results

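The 10 genes described here encode transcription factors that specify and maintain the types of sensory neuron in the dorsal root ganglion (DRG): Runx1, Runx3, Isl1, Pou4f1, Prdm12, Tlx3, Prrxl1, Cux2, Maf and Etv1. They were chosen by name, and each matched 1 of the 47643 gene identifiers in the count files. Of the 10 members, 9 had enough counts to be among the 17178 genes tested, and Runx3 did not.

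RNA-seq was performed on neurons of L4 DRG that were sorted by flow cytometry for a green reporter. Control mice were Nav1.8-Cre; Tsc2 flox/+; Rosa26-ZsGreen, so that Cre removes 1 of the Tsc2 copies in their labelled neurons. Nav-Tsc2 mice carried Nav1.8-Cre, Tsc2 flox/null and the same Rosa26-ZsGreen reporter, and Cre removes the remaining copy. Tsc2 restrains the growth kinase complex mTORC1. Both groups were 8 to 9 weeks old, had a mixed C57BL/6 and AJ background, and had undergone crush of the opposite sciatic nerve 3 d earlier, so the ganglia sampled were uninjured. Each group had 4 mice, of which replicates 1 and 2 were male and replicates 3 and 4 female, and 3 libraries of about 100 cells were made from each mouse. Nav1.8-Cre is active in most nociceptors and also in some neurons with myelinated axons, and the null allele was present in every cell of the Nav-Tsc2 mice.

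Sensory neurons of the DRG arise from common precursors that share a set of homeodomain factors, among them Isl1 and Pou4f1. Later factors divide them: Prdm12 is needed for nociceptors to form, Runx1 for the nonpeptidergic type of nociceptor, and Runx3, Maf, Etv1 and Cux2 are known from proprioceptors or from mechanosensory neurons. Several of these factors remain expressed in the adult, where they hold ion channel, receptor and peptide genes at the level of each type.

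The 24 libraries held between 8339220 and 34228180 counts on genes, and the sum over the libraries of a mouse lay between 47959617 and 61290435. Tsc2 was at 13.4, 24.7, 21.5 and 24.1 normalized CPM (the share of a gene in the scaled counts of the mouse) in control mice 1 to 4 and at 8.70, 8.51, 7.30 and 11.0 in Nav-Tsc2 mice 1 to 4, with no overlap (log2 fold change -1.24, adjusted p = 0.00400 from edgeR's quasi-likelihood test). Scn10a, which encodes Nav1.8 and drives the Cre, was at 670 ± 138 CPM (SD, n = 4) in control and 608 ± 35.1 CPM (SD, n = 4) in Nav-Tsc2 mice, which did not pass.

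Of the 9 members tested, 4 were lower in Nav-Tsc2 mice, namely Etv1, Maf, Cux2 and Isl1, and 0 were higher. Calls required that the adjusted p was under 0.05 and that the log2 fold change exceeded 0.5 in size, in edgeR on 1 summed library per mouse. By the same rule 8.00% of all tested genes were called lower and 9.12% higher. At an unadjusted p under 0.05, 6 members were lower and 0 higher, where 16.6% of all tested genes were lower. Over the members the log2 fold change had a median of -0.29, beside 0.0082 for all genes tested. In Etv1, Maf and Isl1, the mice of the genotypes did not overlap, as in 12.3% of all genes on the lower side, whereas no member was without overlap on the higher side, as 14.6% of all genes were. The factors were also grouped, with earlier results of these data known. All 3 tested factors of the myelinated and mechanosensory group (Etv1, Maf and Cux2) were called lower. Of the 3 shared sensory factors (Isl1, Pou4f1 and Prdm12) 1 was called lower, and of the 3 nociceptor factors (Runx1, Tlx3 and Prrxl1) 0 were. Prdm12, which nociceptors also need, could have been placed with the latter, and it was not called. A bulk library cannot tell fewer cells of a type apart from less RNA per cell.

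**Figure D1:**
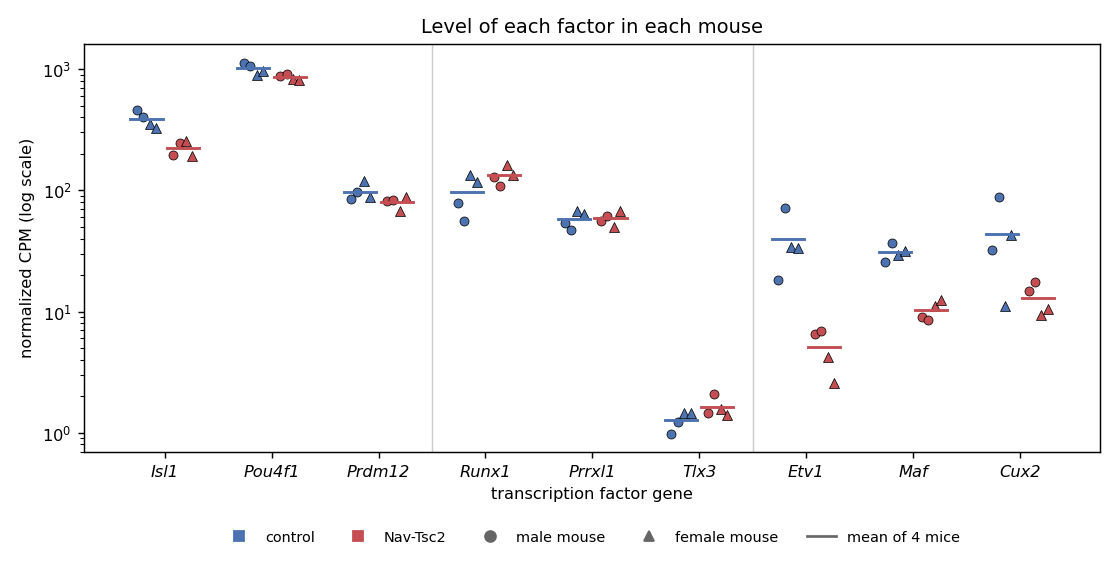
Normalized CPM (log axis) of the 9 tested factors in each mouse, control in blue and Nav-Tsc2 in red, with a bar at the mean of 4 mice, circles for males and triangles for females. The panels divided by grey lines are the shared sensory, the nociceptor, and the myelinated and mechanosensory factors. Etv1, Maf and Isl1 show no overlap between genotypes, and Cux2 spans 11.0 to 87.6 CPM in control mice. Runx3 is left out because most mice had 0 to 2 counts.

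The stretches of genome before the start of Etv1 and Isl1 are shown because these were the factor with the largest fall and the most abundant factor called lower. Each run has the 250 bases before the RefSeq start on GRCm38.p6, 5′ to 3′ on the strand of the gene. Capitals mark the letters TGTGGT, the core word of RUNX factors, which was searched on both strands.
Etv1, chr12:38779832-38780081, plus strand: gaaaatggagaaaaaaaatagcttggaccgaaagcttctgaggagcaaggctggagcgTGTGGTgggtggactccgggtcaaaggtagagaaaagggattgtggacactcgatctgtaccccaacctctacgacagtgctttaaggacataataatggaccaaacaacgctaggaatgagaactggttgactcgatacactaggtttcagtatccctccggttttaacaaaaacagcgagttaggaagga
Isl1, chr13:116309689-116309938, minus strand: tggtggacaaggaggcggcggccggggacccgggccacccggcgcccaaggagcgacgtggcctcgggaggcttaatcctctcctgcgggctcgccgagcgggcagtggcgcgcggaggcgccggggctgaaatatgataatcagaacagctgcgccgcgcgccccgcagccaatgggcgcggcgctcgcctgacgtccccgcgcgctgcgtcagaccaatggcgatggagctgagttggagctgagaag

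The Etv1 stretch lay within the gene as GENCODE draws it and outside every annotated exon, and its TGTGGT stood 192 to 187 bases before the start. The Isl1 stretch held none. RefSeq gave 13 such windows for 9 of the members, with no window for Maf. TGTGGT stood in a window of 3 members (Etv1, Prrxl1 and Runx3), and in 14.0% of 32817 windows of all genes. The ETS word CCGGAA stood in a window of 1 member (Runx1; 12.0% of all windows), the MAF half-site TGCTGA in a window of 1 member (Etv1, at a second start; 16.1%), and the homeodomain word TAATTA in 0 (4.85%). None of these words overlapped another in the members' windows. Members with more than 1 window were counted once, while the percentages are per window, so the shares are not directly comparable. The Isl1 stretch was 71.2% G and C, and that of Etv1 46.4%, beside a median of 52.4% over all windows.

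Levels between genes were compared as CPM per kb of exon sequence. In control mice the order was Pou4f1 with 217 ± 22.4 CPM per kb, Isl1 with 97.4 ± 14.7, Prdm12 with 39.4 ± 6.28, Prrxl1 with 14.0 ± 2.31, Runx1 with 8.03 ± 2.98, Cux2 with 4.30 ± 3.20, Maf with 3.73 ± 0.58, Etv1 with 2.96 ± 1.73, Tlx3 with 0.836 ± 0.15 and Runx3 with 0.0045 ± 0.0033 (SD, n = 4 mice throughout). The mice of Runx1 overlapped those of Cux2, those of Cux2 overlapped Maf, and those of Maf overlapped Etv1, so the order of these 4 was within their spread. In Nav-Tsc2 mice the first 7 places were the same. Etv1, at 0.381 ± 0.15 CPM per kb (SD, n = 4), stood below Tlx3, at 1.06 ± 0.21 (SD, n = 4), without overlap between the mice of the 2 genes. Prrxl1 and Runx1 overlapped there, as did Cux2 and Maf, and Maf and Tlx3.

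Isl1, a LIM-homeodomain factor that acts in all sensory neurons (chromosome 13, 116298281 to 116309689), was at 457, 406, 353 and 326 normalized CPM in control mice 1 to 4. In Nav-Tsc2 mice 1 to 4 it was at 194, 244, 256 and 192 CPM. Every Nav-Tsc2 mouse was below every control mouse, in both sexes. The mean fell 1.74-fold, a log2 fold change of -0.80 (95% CI -1.11 to -0.49, adjusted p = 0.00331). The 12 control libraries ranged from 318 to 615 CPM and the 12 Nav-Tsc2 libraries from 133 to 303 CPM, so single libraries did not overlap either, a separation on the lower side found in 0.792% of all tested genes. Its log2 fold change was -0.99 in males (adjusted p = 0.0138) and -0.60 in females (adjusted p = 0.132), each from 2 mice against 2.

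Pou4f1, a POU-homeodomain factor that acts together with Isl1 in these neurons, was the most abundant member. It was at 1132, 1061, 897 and 958 CPM in control mice 1 to 4 and at 883, 909, 827 and 815 CPM in Nav-Tsc2 mice 1 to 4. The genotypes overlapped only through Nav-Tsc2 mouse 2, which stood above control mouse 3. The log2 fold change was -0.24 (95% CI -0.44 to -0.038, adjusted p = 0.0885), so a change beyond 0.5 in size lay outside the interval.

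Prdm12, a PR-domain zinc finger factor without which nociceptors do not form, was at 84.7, 96.8, 119 and 88.6 CPM in control and at 81.7, 82.5, 67.8 and 87.3 CPM in Nav-Tsc2 mice 1 to 4. Its highest Nav-Tsc2 mouse exceeded its lowest control mouse. The log2 fold change of -0.29 (95% CI -0.57 to -0.0011, adjusted p = 0.147) did not pass. Of its exon sequence, 8.09% overlaps Gm13425 on the other strand, and reads there cannot be assigned without strand.

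Among the nociceptor factors, Runx1, the runt-domain factor of nonpeptidergic nociceptors, was at 78.8, 55.6, 134 and 118 CPM in control mice 1 to 4. It was at 128, 109, 160 and 133 CPM in Nav-Tsc2 mice 1 to 4. The male controls were the lowest mice of all 8, while the female controls lay within the range of the Nav-Tsc2 mice. The difference was a log2 fold change of 0.46 (95% CI -0.10 to 1.02, adjusted p = 0.234). It was 0.81 in males (adjusted p = 0.0529) and 0.22 in females (adjusted p = 0.495), and the difference of 0.61 ± 0.27 (SE) between the sexes did not pass (adjusted p = 0.550 for the interaction in edgeR). When all 24 libraries were fitted by limma-voom, with mouse as a random term, Runx1 was called higher (log2 fold change 0.55, adjusted p = 0.0365). That fit applied the same correlation between libraries of a mouse to every gene, whatever the spread of the gene between mice. Runx1 is also expressed in blood-derived cells, and the summed CPM of 7 macrophage genes was 4.20 to 9.84 in control and 8.64 to 25.6 in Nav-Tsc2 mice. Of these genes Cx3cr1 was called higher (0.0328 against 5.71 CPM), Csf1r had means of 0.803 and 3.71 CPM and C1qb of 1.75 and 0.574 CPM without being called, and C1qa was not tested. Cells were sorted for the reporter, and the study proposes that some glia and other neurons remained. The part of blood-derived cells in the Runx1 value was not tested.

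Prrxl1, a paired-like homeodomain factor needed for nociceptors to reach the dorsal horn, was at 54.1, 46.7, 67.9 and 64.2 CPM in control and at 55.4, 61.0, 49.6 and 68.1 CPM in Nav-Tsc2 mice 1 to 4. The ranges of the genotypes lay over each other, and the log2 fold change was 0.0075 (95% CI -0.31 to 0.33, adjusted p = 0.980), with a sign that changed between fits. Changes larger than 0.33 on the log2 scale in either direction lay outside the interval.

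Tlx3, a homeobox factor grouped here with the nociceptor factors, was near the limit of detection, with 8 to 47 counts per library. It was at 0.983, 1.23, 1.45 and 1.47 CPM in control and at 1.46, 2.11, 1.57 and 1.39 CPM in Nav-Tsc2 mice 1 to 4. The log2 fold change was 0.35 (95% CI -0.47 to 1.17, adjusted p = 0.560). The interval ran from 0.721 to 2.24 times the control level and so held both a fall and a rise. The libraries varied more than counting error alone gives, with a coefficient of variation of 51.8% against 20.9% in control and 39.4% against 18.1% in Nav-Tsc2 libraries.

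Etv1, an ETS factor known from proprioceptors and other mechanosensory neurons (chromosome 12, 38779380 to 38870484), showed the largest difference of the members. It was at 18.1, 72.1, 34.2 and 33.2 CPM in control mice 1 to 4. It was at 6.54, 6.86, 4.25 and 2.59 CPM in Nav-Tsc2 mice 1 to 4. The lowest control mouse was thus well above the highest Nav-Tsc2 mouse, although the control mice spread widely. The mean fell 7.79-fold, a log2 fold change of -2.96 (95% CI -3.97 to -1.95, adjusted p = 0.00184), with -2.76 in males (adjusted p = 0.0471) and -3.30 in females (adjusted p = 0.0158). Its control libraries reached from 2.24 to 105 CPM and its Nav-Tsc2 libraries from 1.84 to 8.22 CPM. All 12 Nav-Tsc2 libraries were below the median control library, and 1 was below the lowest.

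Maf, a basic leucine zipper factor of low-threshold mechanosensory neurons (chromosome 8, 115682942 to 115707794), was at 25.5, 36.7, 29.0 and 31.8 CPM in control mice 1 to 4. It was at 9.05, 8.53, 11.1 and 12.4 CPM in Nav-Tsc2 mice 1 to 4. The values of each genotype lay close together. The mean fell 2.99-fold, a log2 fold change of -1.58 (95% CI -1.97 to -1.19, adjusted p = 0.000349), with -1.83 in males (adjusted p = 0.0108) and -1.37 in females (adjusted p = 0.0332). Libraries did not overlap here either, with 19.8 to 53.7 CPM in control and 5.74 to 16.7 CPM in Nav-Tsc2 libraries, and Isl1 and Maf were the only 2 members of which this held. Macrophages also express Maf. The macrophage sum given above for Runx1 was 4.20 to 9.84 CPM in control and 8.64 to 25.6 CPM in Nav-Tsc2 mice. Of its 6 tested genes Cx3cr1 was called higher, and only C1qb had a negative log2 fold change (-1.60 ± 1.38, SE), which was not called. The part of such cells in the Maf value was not tested. Of the exon sequence of Maf, 5.34% overlaps Gm15655 on the other strand.

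Cux2, a cut-homeodomain factor of mechanosensory neurons (chromosome 5, 121856366 to 122050102), was at 32.4, 87.6, 11.0 and 42.5 CPM in control mice 1 to 4. It was at 14.7, 17.4, 9.39 and 10.4 CPM in Nav-Tsc2 mice 1 to 4. Control mouse 3 lay among the Nav-Tsc2 mice, while the other 3 controls were above all of them. The mean fell 3.34-fold, a log2 fold change of -1.74 (95% CI -2.89 to -0.59, adjusted p = 0.0384), with -1.91 in males (adjusted p = 0.0522) and -1.43 in females (adjusted p = 0.277). Cux2 was called in 10 of 20 other fits, and the call was lost when any mouse other than control mouse 3 was left out. Without control mouse 2 the log2 fold change was -1.14 (adjusted p = 0.0938), and without its library A alone it was -1.21 (adjusted p = 0.0456).

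Runx3, the runt-domain factor of proprioceptors, had 2, 0, 2 and 1 counts in control mice 1 to 4 and 1, 0, 47 and 38 counts in Nav-Tsc2 mice 1 to 4. Of these, 46 came from library C of Nav-Tsc2 mouse 3 and 38 from library B of Nav-Tsc2 mouse 4. No other library had more than 1 count. Amplified reads are not independent molecules, and such counts can stem from very few cells, so no fold change is given.

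**Figure D2:**
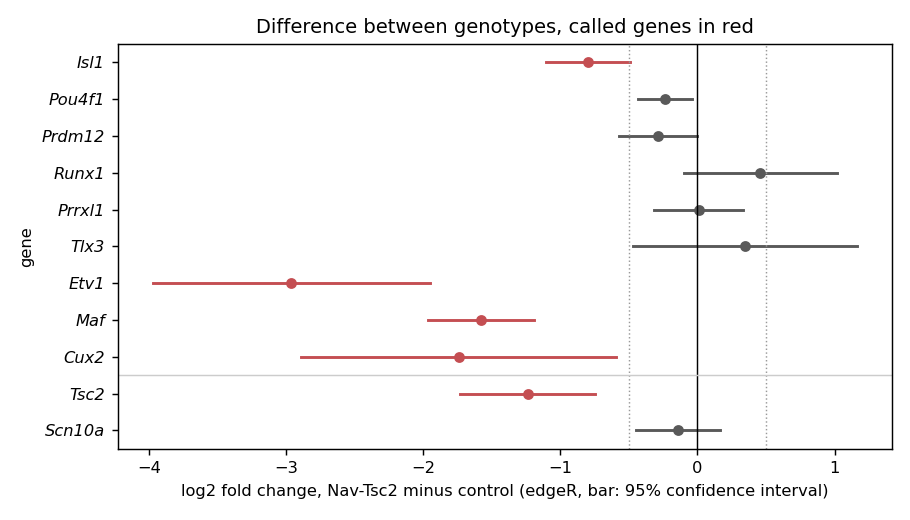
Log2 fold change (Nav-Tsc2 minus control) of the 9 tested factors, and of Tsc2 and Scn10a, with 95% confidence intervals from edgeR (4 against 4 mice) and dotted lines at -0.5 and 0.5. Red marks genes called lower. The intervals of the 4 called factors and of Tsc2 lie below 0, as do those of Pou4f1 and Prdm12, which were not called. Those of Runx1, Prrxl1 and Tlx3 include 0.

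The members differed in how evenly they were spread over the libraries of about 100 cells of a mouse. The ratio of the highest to the lowest library of a mouse had a median over the 8 mice of 1.35 for Pou4f1, 1.46 for Prrxl1, 1.52 for Runx1, 1.59 for Prdm12, 1.62 for Isl1 and 1.67 for Maf. It was 2.37 for Etv1, 2.47 for Cux2 and 2.77 for Tlx3. For Etv1 and Cux2 the uneven mice were controls. Of the Cux2 counts of control mouse 2, 73.0% came from library A, at 214 CPM against 36.3 and 32.3 CPM in its other libraries, and of those of control mouse 3, 73.7% came from library C. Of the Etv1 counts of control mouse 1, 71.7% came from library C, at 35.5 CPM against 16.2 and 2.24 CPM in libraries A and B. Over all 12 control libraries the coefficient of variation was 124% for Cux2 and 79.1% for Etv1, and over the 12 Nav-Tsc2 libraries it was 34.5% and 43.4%. For Isl1 these values were 27.9% and 24.5%, and for Maf 32.5% and 29.6%. Counting error alone gives 3.60% for Cux2 and 3.77% for Etv1 in control libraries.

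**Figure D3:**
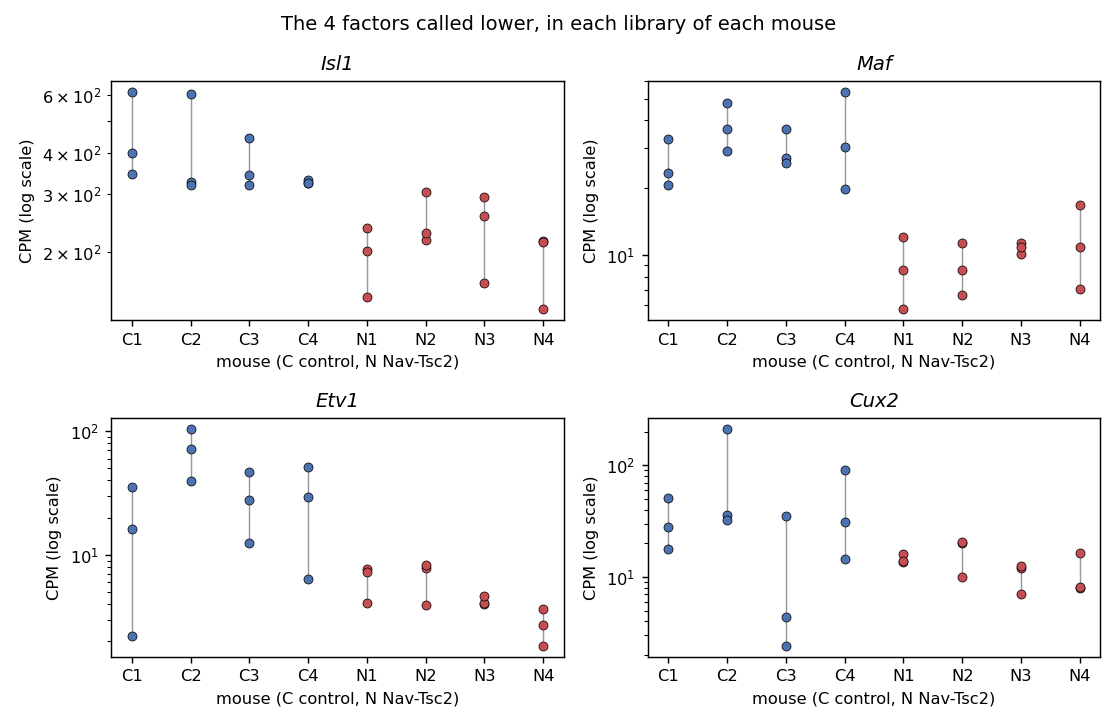
CPM (log axis) of the 4 factors called lower in each of the 3 libraries of each mouse, joined by a grey line, with controls C1 to C4 in blue and Nav-Tsc2 mice N1 to N4 in red. Isl1 and Maf separate library by library, whereas Etv1 and Cux2 vary between libraries of the same control mouse, for Cux2 from 2.42 to 35.1 CPM in C3.

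Across the 24 libraries, after the genotype mean was removed, the log2 CPM of the members were compared with each other. Over 36 pairs of the 9 tested members Pearson's r had a median of -0.022 and ran from -0.54 (Runx1 and Cux2) to 0.50 (Pou4f1 and Cux2). Isl1 and Pou4f1 had r = 0.49. Within a genotype the values spread further, from -0.75 to 0.53 over the 12 control libraries and from -0.47 to 0.78 over the 12 Nav-Tsc2 libraries, and some had opposite signs. Pou4f1 and Prrxl1 had r = -0.62 in control and 0.56 in Nav-Tsc2 libraries, and Prdm12 and Prrxl1 had -0.20 and 0.77. Cux2 and Etv1 had 0.11 and 0.78. The libraries of a mouse share its ganglia and all libraries share depth and scaling, so these values are descriptions. Among 8437 other genes with a mean of at least 10 CPM, the genes most like Runx1 were Tmem158 (r = 0.92), Ap3s1 (0.90) and Paqr5 (0.90). Those most like Cux2 were Clasp1 (0.88), Zfp780b (0.83) and Rab30 (0.83), and those most like Etv1 were Osmr (0.84), Ccser2 (0.79) and Rbm15b (0.74). For Cux2 and Etv1 the likeness lay mainly in the control libraries, with r = 0.95 for Clasp1 and 0.92 for Osmr there against 0.28 and 0.54 in Nav-Tsc2 libraries. Some pairs of other members also differed in this way, such as Runx1 and Ap3s1 (0.96 and 0.41) and Maf and Slc19a1 (0.88 and 0.33). Others were higher in Nav-Tsc2 libraries, such as Prrxl1 and Adora1 (0.80 and 0.93) and Maf and Zfp280d (0.54 and 0.76). The genes most like Isl1 were Slc39a1 (0.77), Wtap (0.75) and Clasp2 (0.74), and those most like Pou4f1 were AI593442 (0.82), Gnb1 (0.80) and Psma3 (0.80). For Prdm12 they were Cav1 (0.77), Castor2 (0.77) and Lats2 (0.75), and for Prrxl1 they were Adora1 (0.82), Sel1l (0.81) and Hip1r (0.81). The lowest values were those of Tlx3 (Prpsap2, 0.73; Dda1, 0.72; Opa1, 0.71) and Maf (Slc19a1, 0.69; Pla2g2d, 0.65; Zfp280d, 0.65). Osmr and Tmem158 themselves were not called between genotypes.

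Partners and paralogs of the members moved in both directions. Of 26 such genes, 19 were tested, 6 were lower, 3 were higher and 10 were not called, with a median log2 fold change of -0.34. The genes called lower were Pou4f3, Etv5, Cbfa2t3, Cbfb, Prdm8 and Runx1t1. Pou4f3, of the same family as Pou4f1, fell from 68.7 ± 10.8 to 16.7 ± 5.81 CPM (SD, n = 4 each; log2 fold change -2.04, adjusted p = 0.000403). Etv5, of the same ETS subfamily as Etv1, fell from 36.9 ± 1.14 to 9.57 ± 3.34 CPM (SD, n = 4 each; log2 fold change -1.95, adjusted p = 0.000430). Cbfa2t3, a corepressor of the family that was named for fusions with RUNX1, fell from 14.2 ± 8.19 to 1.74 ± 0.91 CPM (SD, n = 4 each; log2 fold change -3.03, adjusted p = 0.00254). In these 3 genes the mice of the genotypes did not overlap. Cbfb, the partner subunit of the RUNX proteins, chosen after its values were seen, fell from 284 ± 65.1 to 149 ± 13.9 CPM (SD, n = 4 each; log2 fold change -0.93, adjusted p = 0.00427). Upward moved Runx2, the paralog best known from bone, from 3.55 ± 1.74 to 15.3 ± 2.96 CPM (SD, n = 4 each; log2 fold change 2.10, adjusted p = 0.00443). Tle3, a Groucho-type corepressor, rose from 6.03 ± 1.62 to 15.9 ± 1.67 CPM (SD, n = 4 each; log2 fold change 1.40, adjusted p = 0.00218), and Tlx2, a paralog of Tlx3, from 5.29 ± 1.09 to 8.90 ± 1.76 CPM (SD, n = 4 each; log2 fold change 0.75, adjusted p = 0.0473). With the replicate number as a block, the calls of Tlx2 (adjusted p = 0.122), Prdm8 (adjusted p = 0.0946) and Runx1t1 (adjusted p = 0.0804) were lost, which left 4 lower and 2 higher. Of the RUNX genes and their partner, then, Runx2 rose and Cbfb fell, while Runx1 was not called and Runx3 was not tested.

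**Figure D4:**
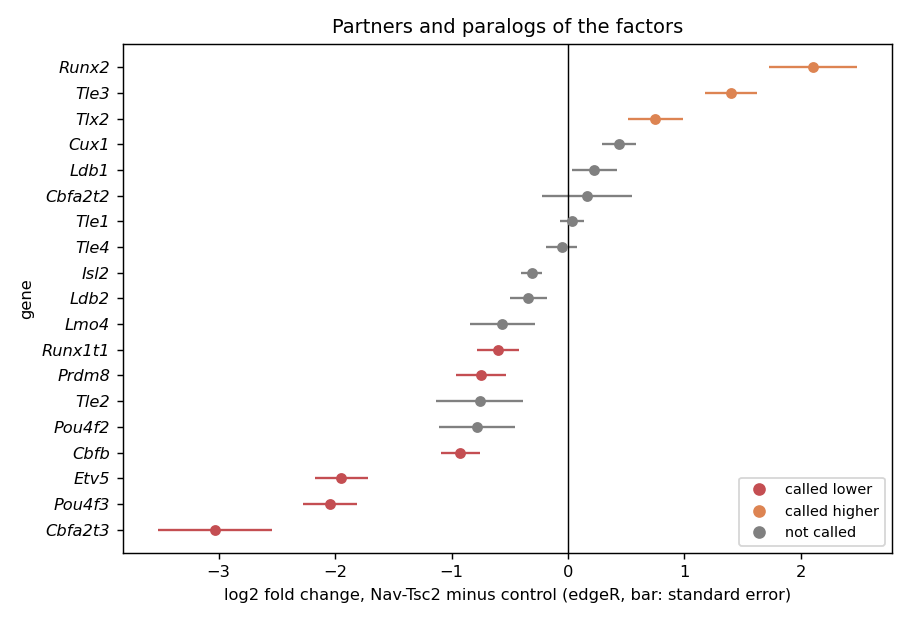
Log2 fold change (Nav-Tsc2 minus control) with standard error from edgeR for the 19 tested partners and paralogs of the factors, 4 against 4 mice. Red points were called lower, orange points higher and grey points were not called. Cbfa2t3, Pou4f3 and Etv5 lie lowest and Runx2 highest.

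Other transcription factors of sensory neurons were tested as a further list of 37 genes, of which 30 were tested, 7 were lower, 2 were higher and 21 were not called. The median log2 fold change was -0.24. The genes called lower were Bcl11b, Ebf1, Nfia, Nfib, Tshz2, Six4 and Bcl11a. Bcl11b, a zinc finger factor, fell from 34.6 ± 10.9 to 2.31 ± 1.23 CPM (SD, n = 4 each; log2 fold change -3.90, adjusted p = 0.000294). Nfia, a nuclear factor I protein, fell from 631 ± 137 to 107 ± 46.2 CPM (SD, n = 4 each; log2 fold change -2.56, adjusted p = 0.000506), and Ebf1, a helix-loop-helix factor, from 424 ± 44.0 to 252 ± 11.5 CPM (SD, n = 4 each; log2 fold change -0.75, adjusted p = 0.000500). Sox11, a factor of immature and regenerating neurons, rose from 155 ± 42.1 to 855 ± 66.1 CPM (SD, n = 4 each; log2 fold change 2.46, adjusted p = 5.93e-05). Rora, a nuclear receptor, rose from 8.93 ± 5.01 to 19.8 ± 5.68 CPM (SD, n = 4 each; log2 fold change 1.15, adjusted p = 0.0477), with overlap between the mice, and was not called with the replicate block (adjusted p = 0.0842).

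Genes known to depend on Runx1 were examined beside it. Of 12 genes that fall when Runx1 is lost, 11 were tested, 1 was lower and 0 were higher in edgeR, and their median log2 fold change was 0.53. The gene called lower was Mrgpra3, an itch receptor, at 29.8 ± 37.0 CPM in control and 0.0768 ± 0.083 CPM in Nav-Tsc2 mice (SD, n = 4 each; adjusted p = 0.00557), a call that was lost in limma-voom on 24 libraries and with females only. Mrgprd, a receptor of nonpeptidergic nociceptors that was chosen after its values were seen, was at 159 ± 144 CPM in control and 537 ± 47.7 CPM in Nav-Tsc2 mice (SD, n = 4 each), and did not pass (adjusted p = 0.0935). In the fit of 24 libraries with limma-voom 6 of these genes were called higher, and with males only 7 were. Of 4 genes that rise when Runx1 is lost, 3 were lower, among them Calca and Oprm1, where 8.00% of all tested genes were lower. Met, the remaining gene, went the other way without being called (0.171 CPM in control and 0.935 CPM in Nav-Tsc2 mice, log2 fold change 2.45, adjusted p = 0.167 in edgeR). Calca, which encodes the peptide CGRP, fell from 10162 ± 4518 to 2557 ± 616 CPM (SD, n = 4 each; log2 fold change -1.99, adjusted p = 0.00215), and Oprm1, the mu opioid receptor, from 14.8 ± 5.74 to 7.34 ± 1.00 CPM (SD, n = 4 each; adjusted p = 0.0308).

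Markers of the cell types that the gate could hold moved with genotype as well. The summed CPM of 7 pan-neuronal genes, of which Tubb3 was the most abundant, was 13592 to 16509 in control and 14740 to 16915 in Nav-Tsc2 mice, while Snap25 and Rbfox3 were lower and Prph was higher. Of 14 genes of myelinated mechanosensory neurons, led by Nefl, 4 were lower, among them Ldhb, Cntnap2 and Fam19a1, 0 were higher and 10 were not called. Over all tested genes 8.00% were called lower. Nefl, Nefm and Nefh were among the genes not called. Pvalb (log2 fold change 2.36, adjusted p = 0.0525 in edgeR), Spp1 (2.19) and Necab2 (0.27) had positive values and were not called either. The sum of the 14 genes was 3846 to 5503 CPM in control and 2900 to 4010 CPM in Nav-Tsc2 mice, with some overlap. Of 9 peptidergic genes, led by Calca, 4 were lower, among them Calca, Kit and Smr2, and of 9 nonpeptidergic genes, led by Mrgprd, 1 was lower (Ptgir) and 0 higher. The study placed Ptgir among genes of neurons that do not bind the lectin IB4, a label of nonpeptidergic nociceptors. Of 7 genes of Nppb itch neurons, led by Nts, 3 were lower (Nppb, Sst and Il31ra, of which Nppb was not called with the replicate block, adjusted p = 0.0894) and 1 higher (Nts), and of 7 low-threshold C-fiber genes, led by Th, 1 was lower (Piezo2) and 1 higher (Th, not called with the replicate block, adjusted p = 0.0766). Of 14 glial genes, led by Pmp22, 1 was lower (S100b, which some large sensory neurons also express) and 0 higher, and their sum was 3006 to 3127 CPM in control and 1984 to 2571 CPM in Nav-Tsc2 mice. Of 6 endothelial genes, led by Flt1, the 3 tested were higher (Flt1, Kdr and Ly6c1), with sums of 0.326 to 1.85 CPM in control and 7.73 to 20.1 CPM in Nav-Tsc2 mice, and Cldn5, Cdh5 and Pecam1 had too few counts to be tested. Of 7 macrophage genes, led by Cx3cr1, 1 was higher (Cx3cr1). Of 6 fibroblast genes, led by Dcn, 0 were called, with sums of 73.1 to 236 CPM in control and 121 to 196 CPM in Nav-Tsc2 mice, and of 4 red blood cell genes, led by Hba-a1, 0 were called, at under 2 CPM in sum. The part of these cells in the values of the members was not tested.

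**Figure D5:**
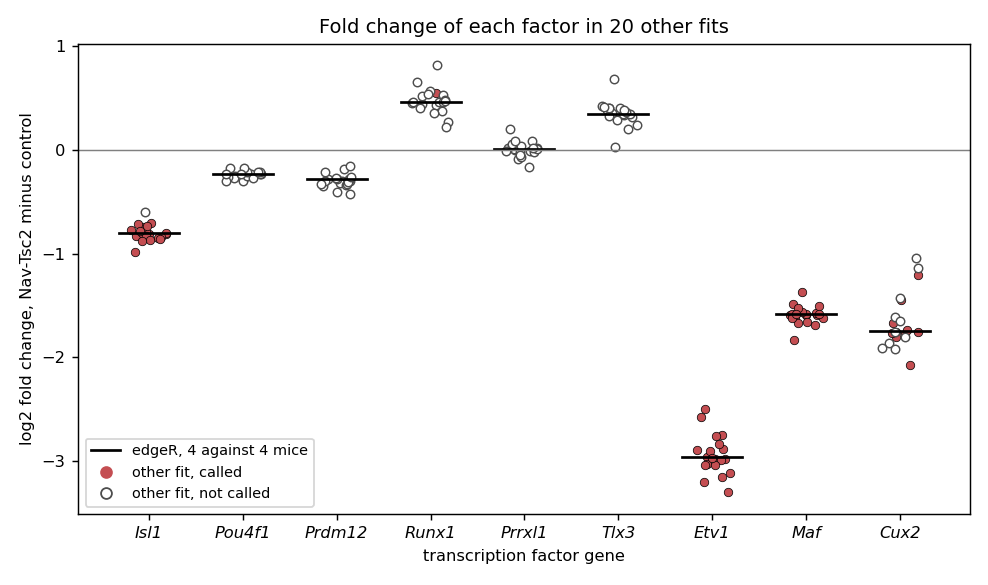
Log2 fold change (Nav-Tsc2 minus control) of the 9 tested factors in edgeR with 4 against 4 mice (black bar) and in 20 other fits (points, red where called and open where not). Etv1 and Maf were called in 20 of 20 other fits, Isl1 in 19 and Cux2 in 10, Runx1 was called in 1, and the fold change of Prrxl1 lay on both sides of 0.

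The difference between genotypes was compared between the sexes. In edgeR 0 members had an interaction of genotype and sex at an adjusted p under 0.05, 0 at an unadjusted p under 0.05, and 0 by DESeq2 at the adjusted threshold, and 1 gene of all those tested passed. With 2 mice per sex and genotype the intervals were wide. The interaction of Etv1, as the difference of log2 fold changes of males minus females, was 0.55 ± 0.78 (SE), that of Cux2 -0.47 ± 0.88 (SE), that of Maf -0.45 ± 0.30 (SE) and that of Isl1 -0.37 ± 0.24 (SE).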

How the data were processed

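RNA-seq was from 24 libraries of 8 mice, grouped by the labelled genotype and replicate. The authors prepared SMARTer cDNA, aligned single reads to mm10 with STAR, and deposited counts per gene and library from HTSeq without normalization, with no molecular identifiers. Intervals and floors from counts would cover counting error only. The strand setting and the software versions were not given in the sources used here. A further table of the authors holds 8 columns of values per mouse with DESeq2 fold changes and p-values, and it was not used.

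The 3 libraries of each mouse were summed, as in the study, so that the mouse was the replicate. Reads not on a gene, 47.6 to 55.9% of each library's total, were left out. Identifiers were matched to GENCODE M21 (GRCm38) without their version, and 47224 of 47643 had a symbol. Genes were kept by filterByExpr (minimum count 10) and scaled by TMM in edgeR 4.0.16 (R 4.3.3), and genotypes were compared with its quasi-likelihood F-test. Benjamini-Hochberg adjustment ran over all 17178 genes. Each standard error is the ratio of the log2 fold change to the root of its F value. The script was tested on simulated data. Levels are TMM-normalized CPM. CPM per kb uses the union of exons, which ignores that cDNA from few cells can be biased to the 3′ end. Likeness used log2(CPM + 1) less the genotype mean.

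The genes named were all members, Tsc2, Scn10a, the 3 called genes with the smallest adjusted p in each direction of each list, the most abundant gene of each marker list, and for each member the 3 genes of highest r. Other genes listed by name as called in a list were named after their values were seen. So were Csf1r, C1qa, C1qb, Cldn5, Cdh5, Pecam1, Nefm, Nefh, Pvalb, Spp1, Necab2 and Met. Some genes that meet these rules are not reported here. The members and lists were chosen with earlier results of these data known. Alternatives were DESeq2 1.42.0, upper-quartile scaling, DESeq2 size factors, all genes with a count, no fold threshold, sex as a covariate, a replicate block, equal weights of the libraries, 24 libraries in limma 3.58.1 (voom, mouse as a random effect), each mouse left out, and males or females only. Leaving out library A of control mouse 2 or library B of Nav-Tsc2 mouse 3 was added after seeing the data. 

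Pairing of mice by replicate number was checked through the correlation, over 8445 genes, of deviations from the genotype mean. For replicates 1 to 4 it was 0.184, 0.185, 0.108 and 0.199 on edgeR's log CPM scale, each over 0.1, and on log2(CPM + 1) it was 0.0831, 0.108, 0.0187 and 0.107. Pairs with unequal numbers but equal sex had 0.198, 0.0627, 0.185 and 0.110 on edgeR's scale, and mice of opposite sex -0.251 to -0.0826. Promoter windows were taken from RefSeq on GRCm38.p6.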

Additional observations from a re-analysis of the deposited data

How the results depend on the processing

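Etv1 and Maf kept their direction and call in 20 of 20 other fits, with log2 fold changes of -3.30 to -2.50 and -1.83 to -1.37. Isl1 kept both in 19 (-0.99 to -0.60), with the call lost in females only (-0.60, adjusted p = 0.132), and Cux2 kept its direction in 20 and its call in 10 (-2.07 to -1.05). With females only 2 members were called lower, and with males only 3, each from 2 mice against 2. With 24 libraries and the mouse as a random effect, 1 member (Runx1) was called higher, and Cux2 was not called (adjusted p = 0.176). Prrxl1, which was never called, had a log2 fold change of -0.0077 with DESeq2, -0.0058 with DESeq2 size factors, -0.0211 with upper-quartile scaling, -0.165 with females only and -0.0523 without library A of control mouse 2. With each mouse left out in turn it ran from -0.0859 to 0.0818.

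With the replicate block the members called stayed the same 4 (Etv1 -2.90, adjusted p = 0.00652; Maf -1.58, adjusted p = 0.00402; Isl1 -0.80, adjusted p = 0.0127; Cux2 -1.45, adjusted p = 0.0407). It changed no call of a member, and took the partners and paralogs from 6 to 4 lower and from 3 to 2 higher. The other sensory neuron factors went from 7 to 8 called lower and from 2 to 1 called higher. The number called higher was also 1 with upper-quartile scaling, libraries weighted equally and females only. It was 4 with DESeq2, 5 with 24 libraries, and 1 to 4 with a mouse left out. With females only, 3 partners and paralogs were lower and 0 higher, and 2 other sensory neuron factors were lower. Of the genes lowered by loss of Runx1, 0 were called lower with 24 libraries and with females only, and 1 to 2 with a mouse left out. Of the same genes, 2 were called higher with sex as a covariate, 6 with 24 libraries, 7 with males only, and 0 to 3 with a mouse left out. The cause of these differences was not tested.

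Over all genes, 1374 were lower and 1567 higher, against 1253 and 2207 with 24 libraries. Thus 63.8% rather than 53.3% of the calls were higher with 24 libraries. With males only 1160 were lower and 1424 higher, and with females only 186 and 308. In each fit the median log2 fold change over all genes was between -0.1 and 0.1. Tlx3 had few counts in every library, and the counts of Runx3 came almost all from 2 libraries.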
